A study of Mus musculus with 8 samples.

Results

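The genes of glycolysis and of the handling of pyruvate and lactate were examined in Paneth cells sorted from mice with a heterozygous or homozygous induced deletion of Mll1. The 33 members were taken by their symbols from the 53801 genes of the count table. They cover glucose uptake, the 10 enzyme steps down to pyruvate with the phosphofructokinase 2 enzymes, lactate dehydrogenase, lactate transport, the mitochondrial pyruvate carrier, pyruvate dehydrogenase and its kinases. Of the 33, 31 passed the filter on low counts, as did 13439 of all genes.

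Glycolysis splits glucose into pyruvate in the cytosol. Lactate dehydrogenase then turns pyruvate into lactate, which leaves the cell through monocarboxylate transporters, or the mitochondrial pyruvate carrier takes pyruvate into mitochondria, where pyruvate dehydrogenase makes acetyl-CoA from it. Pyruvate dehydrogenase kinases switch that enzyme off. Paneth cells, the granular secretory cells at the base of small intestinal crypts, have been described as glycolytic cells that supply lactate to the neighbouring Lgr5+ stem cells.

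Mll1, encoded by Kmt2a, is a histone H3 lysine methyltransferase. The controls were 4 β-catGOF; Mll1+/- mice and the knockouts 4 β-catGOF; Mll1-/- mice, so that both groups carried the allele that stabilises β-catenin once its exon 3 is deleted. Recombination was driven by Lgr5-EGFP-IRES-CreERT2, a tamoxifen-dependent Cre that is active in Lgr5+ stem cells, and tamoxifen (1 mg per the labels) was injected on 3 days into mice aged 4 to 6 weeks. Viable EpCAM+ Cd24+ cells were sorted from dissociated crypts on day 10 after induction, and 300 cells per mouse went into 1 Smart-seq2 library, a protocol that copies and amplifies polyadenylated RNA. The study describes this Cre as giving a mosaic of recombined crypts beside non-recombined ones. Its sorting steps name no gate for recombined cells, and their share in each library was not tested. Although this Cre acts in stem cells, the study reports from immunohistochemistry at the time of sorting that crypt cells, Paneth cells included, were deficient for Mll1. Those images were not analysed here. The methods paragraph on the sorting names the same Cre and Mll1 alleles without β-catGOF, whereas the labels and the rest of the study give β-catGOF in both groups.

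Library totals lay between 13037832 and 14380240 counts on genes, and the 50 most abundant genes took 76.4% to 88.1% of them. The 10 Paneth cell markers summed to 265000 to 523000 normalized CPM in the controls and 242000 to 747000 in the knockouts, where CPM were computed over TMM-corrected library sizes. None of these 10 markers had an unadjusted p under 0.05. Knockout 3 stood apart, with the lowest TMM factor (0.632, against 0.822 to 1.34 in the others), the fewest genes with a count (19662, against 22623 to 26074) and the smallest mitochondrial share (2.04%, against 3.26% to 8.78%). The label numbers of the libraries form 2 runs, called library sets here: controls 1 and 2 with knockouts 1 and 2, and controls 3 and 4 with knockouts 3 and 4. Kmt2a itself had 268 to 719 counts in the controls and 328 to 523 in the knockouts (log2 fold change, or log2FC, of the knockouts over the controls -0.06 ± 0.24 SE), a sum over all exons that does not show whether the floxed part was deleted. Of the markers of other crypt cells, 0 were called. Beside 50.9% of all genes with a higher fitted value in the knockouts, the 8 enteroendocrine markers all had a lower one (6 at an unadjusted p under 0.05) and summed to 161 to 674 normalized CPM in the controls and 19.1 to 179 in the knockouts, and the 7 tested tuft markers had lower fitted values (2 at an unadjusted p under 0.05, 232 to 526 against 101 to 337). The 8 proliferation markers had higher fitted values (2 at an unadjusted p under 0.05, 80.3 to 170 against 104 to 252). The summed ranges of all of these lists overlapped. Of the 8 stem cell markers, 2 were higher (Axin2 and Tnfrsf19) and 3 lower (Olfm4, Ascl2 and Slc12a2) at an unadjusted p under 0.05, as were 3 of 7 tested enterocyte markers, all lower (Fabp2, Sis and Vil1), and 2 of 10 goblet markers, both lower (Fcgbp and Zg16), while 3 of 9 immune and 1 of 8 stromal markers passed the filter. The part of these cells in the results below was not tested, and in a sorted bulk sample fewer cells of a type and less RNA per cell cannot be told apart.

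The promoters of the members that were higher in every knockout than in every control, Aldoc, Pdk4 and Pfkp, are shown here, with that of Ldha, the member with the highest level per length, beside them. Each is the 250 bases before the RefSeq transcription start on GRCm38.p6, 5′ to 3′ on the gene's strand. Capitals mark matches, on either strand, to ACGTG, the core of the hypoxia response element, and to CTTTGA, the core of the Tcf/Lef site at which β-catenin acts. The E-box CACGTG contains ACGTG on both strands.
Aldoc, chr11:78322823-78323072, plus strand: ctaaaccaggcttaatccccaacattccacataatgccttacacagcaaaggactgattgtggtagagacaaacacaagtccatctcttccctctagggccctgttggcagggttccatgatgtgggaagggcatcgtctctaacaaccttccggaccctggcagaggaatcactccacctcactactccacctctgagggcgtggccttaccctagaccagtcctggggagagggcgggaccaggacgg
Pdk4, chr6:5496279-5496528, minus strand: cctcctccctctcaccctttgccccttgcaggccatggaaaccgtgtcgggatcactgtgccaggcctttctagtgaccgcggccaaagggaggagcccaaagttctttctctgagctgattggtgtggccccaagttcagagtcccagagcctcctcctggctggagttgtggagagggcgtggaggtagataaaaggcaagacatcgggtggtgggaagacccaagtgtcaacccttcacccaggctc
Pfkp, chr13:6648772-6649021, minus strand: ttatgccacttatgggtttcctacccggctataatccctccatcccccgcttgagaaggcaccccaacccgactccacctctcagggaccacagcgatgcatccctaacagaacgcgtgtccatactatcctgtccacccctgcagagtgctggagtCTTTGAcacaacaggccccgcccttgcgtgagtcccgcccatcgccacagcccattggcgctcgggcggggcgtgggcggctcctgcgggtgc
Ldha, chr7:46845554-46845803, plus strand: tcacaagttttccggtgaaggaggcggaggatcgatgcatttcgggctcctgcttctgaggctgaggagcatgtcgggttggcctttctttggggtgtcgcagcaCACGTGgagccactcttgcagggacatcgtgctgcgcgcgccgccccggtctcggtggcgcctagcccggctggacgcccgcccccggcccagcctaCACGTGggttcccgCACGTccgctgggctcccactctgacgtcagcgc
The Ldha window held 2 E-boxes and 1 further ACGTG, the Pfkp window held 1 CTTTGA, and the Aldoc and Pdk4 windows held no match. A second start of Aldoc, with the window chr11:78323948-78324197, had 1 CTTTGA, and a second start of Ldha had 1 CTTTGA as well. Over the 53 windows of the 33 members, ACGTG was present in 19 (35.8%), against 16.6% of all 32851 windows of that length. CACGTG was present in 6 (11.3%), against 6.02%, and CTTTGA in 5 (9.43%), against 13.8%. Windows of the same gene can overlap and are then not separate promoters, and overlapping windows of Aldoa held the same ACGTG. The matches are of letters and not binding sites.

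Between the genotypes, 3 members separated: Aldoc, Pdk4 and Pfkp lay higher in every knockout than in every control. Ldha, Aldoa, Tpi1 and Pdha1, the 4 members with the highest level per kb of exon, had a log2FC between -0.09 and 0.1, and no member passed the edgeR correction for all genes. With an adjusted p up to 0.05 and a log2FC of 0.5 or more in either direction (edgeR quasi-likelihood test with Benjamini-Hochberg adjustment over 13439 genes), 0 of the 31 tested members were called, against 0.186% of all genes. At a false discovery rate of 10%, 0 members were called, against 0.283%. At that rate limma-voom with quality weights called Aldoc (adjusted p = 0.0673) and Pdk4 (0.0861), against 1.31% of genes, DESeq2 called 2 members, against 1.41%, edgeR without the filter on low counts 2, against 1.03%, and edgeR without knockout 3 called 1, Aldoc, against 1.58%. At an unadjusted p under 0.05, 3 members were higher and 0 lower in the knockouts, where 4.35% of all genes were higher and 2.53% lower. Complete separation of the genotypes was found in 3 members with the knockouts higher and in 0 with the knockouts lower, against 2.59% and 1.93% of all genes. Of these members, Pdk4 passed the filter on low counts through its knockouts, as controls 1 and 4 had 2 and 5 counts. DESeq2's Wald test called 2 members, Aldoc and Pdk4, against 1.03% of genes, and edgeR without the filter on low counts called Aldoc and Pdk4 as well, against 0.783%.

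As a whole the members lay close to the other genes. Of the 31, 15 had a higher and 16 a lower fitted value in the knockouts, and their median log2 fold change was -0.02, beside 0.01 for all genes tested. The fitted values ran from -0.65 to 2.22, and 22 members (71%) lay within 0.5 of 0, as did 76.2% of all genes. Scaling by library size alone raised the median of all genes to 0.25 and that of the members to 0.24, and 24 of the 31 members then had a higher fitted value. Knockout 3 held the highest value in 22.6% of the members and the lowest in 22.6%, and in 26.8% and 31% of all genes.

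**Figure D1:**
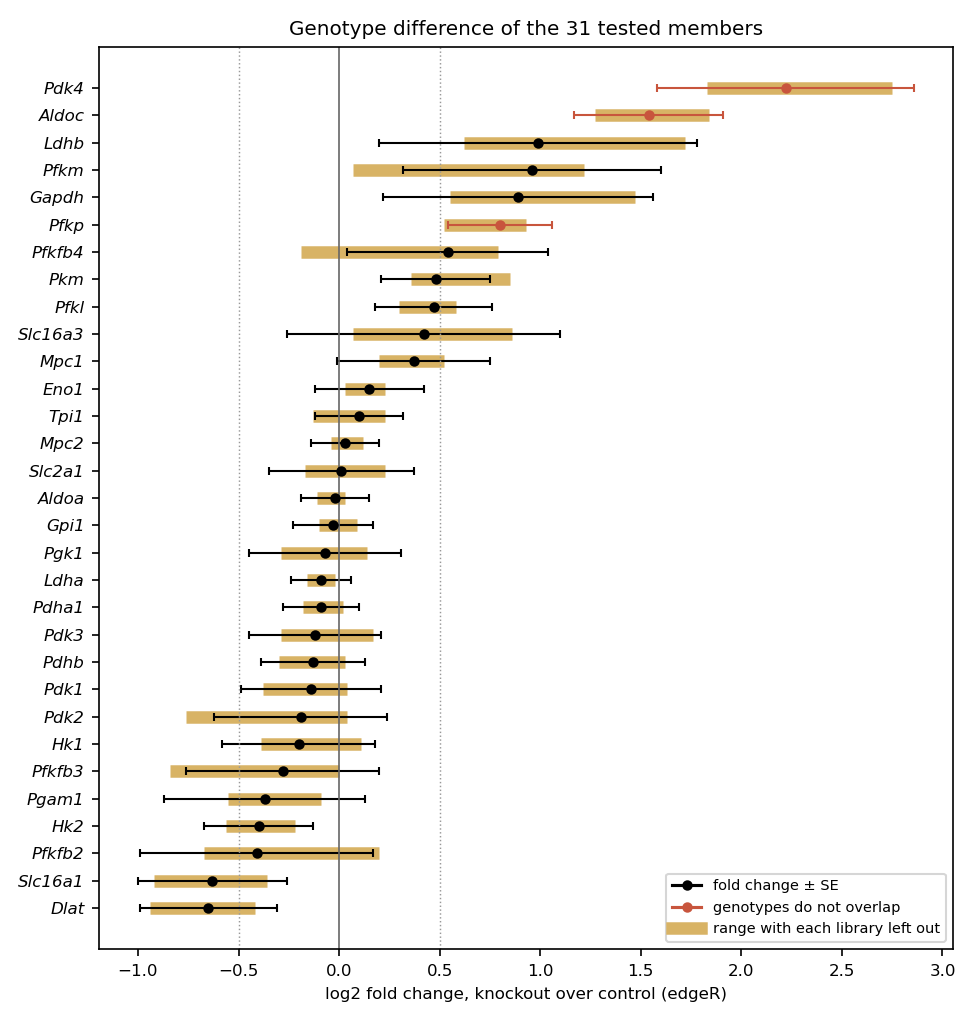
Fitted log2 fold change (knockout over control, edgeR) of the 31 tested members with its standard error, ordered by size; the wide bars give the range of the value with each of the 8 libraries left out and the dotted lines mark 0.5 in either direction. Pdk4, Aldoc and Pfkp, drawn in red, are the members whose genotypes do not overlap, and the bars of Pfkm and Pfkfb4 reach down to 0.07 and -0.19.

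Levels per kb of exon spanned a wide range. Ldha was highest with a mean of 19.5 normalized CPM per kb over the 8 libraries, followed by Aldoa (18.3), Tpi1 (12.1), Pdha1 (7.09) and Hk2 (5.31), at the 93.9th, 93.6th, 90.6th, 85th and 80.9th percentile of the genes tested. Ldha and Aldoa overlapped in their library values. The order depends on the length used: all exon bases include long or rare exons, and per kb of the main transcript, computed after seeing the data, Ldha (36.5), Aldoa (35.3), Mpc2 (34.6), Tpi1 (20.7) and Pdhb (13.3) were highest. At the other end, Eno2 had 0 to 5 counts and Pfkfb1 1 to 33 counts in a library, and these were the members that did not pass the filter. Gapdh, which is among the most abundant mRNAs of most cells, had 2, 13, 2 and 9 counts in controls 1 to 4 and 21, 16, 4 and 18 in knockouts 1 to 4. Only uniquely mapped reads were counted, and of the 50-base stretches of the main Gapdh transcript in GENCODE M21, 82.5% occur in transcripts of other genes, of which 213 are annotated as pseudogenes. The same share was 72.2% for Eno1, 68% for Pgk1, 44.2% for Mpc1, 41.5% for Pgam1, 34.4% for Pkm, 30.3% for Pdhb and 27% for Ldhb. For Aldoc, Hk1, Hk2, Slc16a1, Slc16a3, Dlat and Pdk1 to Pdk3 the share was 0. How far shared stretches lowered the counts of any member was not tested.

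**Figure D2:**
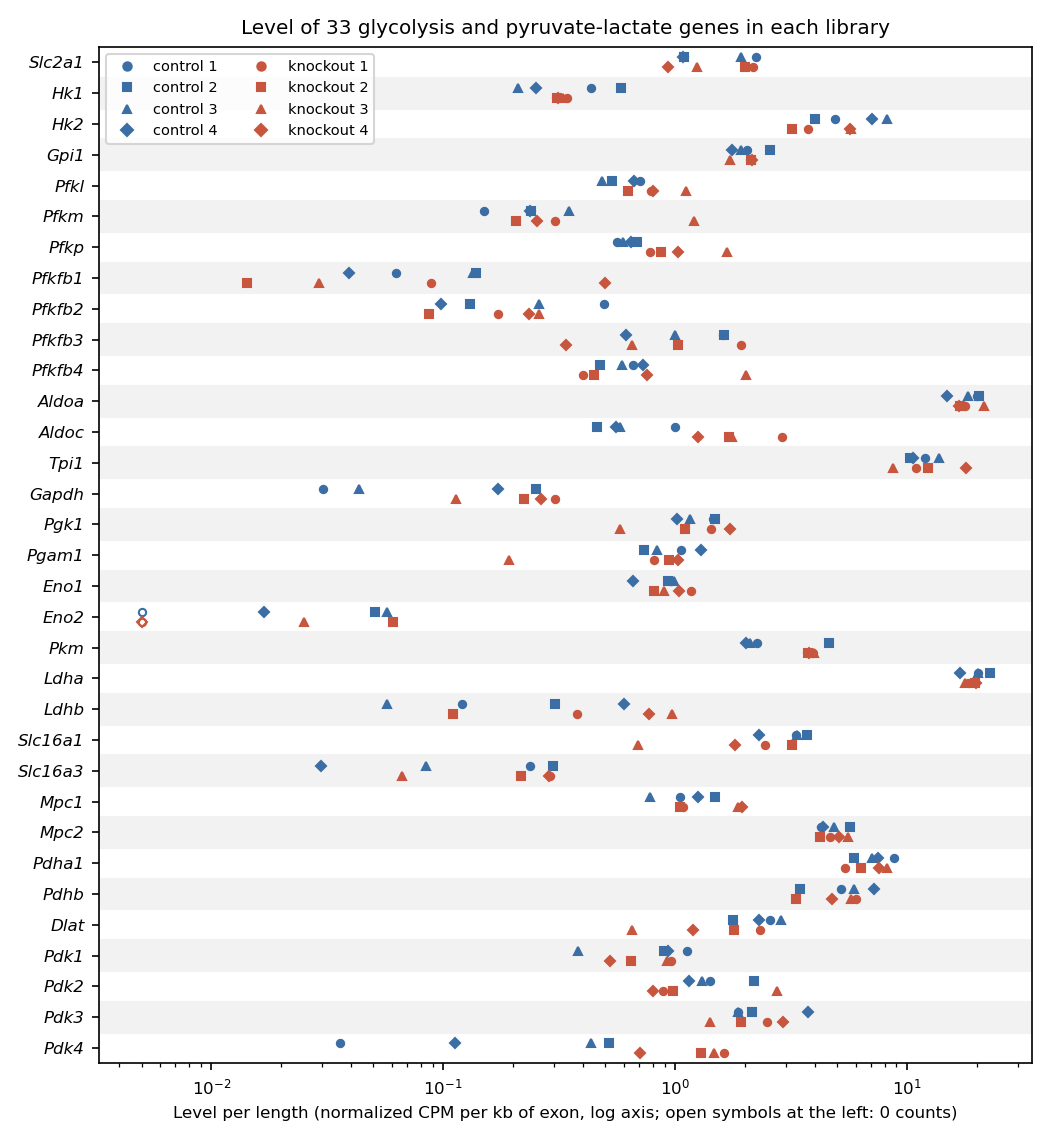
Level of each member in normalized CPM per kb of exon (log axis) in every library, controls in blue and knockouts in red, with a symbol for each replicate number and open symbols at the left for 0 counts. Ldha, Aldoa and Tpi1 lie furthest to the right, and the genotypes separate in Aldoc, Pdk4 and Pfkp.

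Glucose uptake and the first steps did not pass the test. Slc2a1, which encodes the glucose transporter Glut1, had 7.83, 3.81, 6.73 and 3.79 normalized CPM in controls 1 to 4 and 7.6, 7.01, 4.35 and 3.28 in knockouts 1 to 4, groups that overlapped over nearly their whole range (log2FC 0.01 ± 0.36 SE). Hk2 encodes hexokinase 2, which traps glucose as glucose 6-phosphate, and made up 93.3% ± 4.74 of the sum of Hk1 and Hk2 per kb in the controls and 93% ± 1.9 in the knockouts (mean ± SD of 4), with Hk1 as the rest. It had 29.1, 23.9, 48.8 and 42.1 normalized CPM in the controls and 22.3, 19, 34.3 and 33.8 in the knockouts. All libraries of the second set lay above all of the first. Within each set both knockouts were below both controls, by -0.36 in the first and -0.42 in the second (log2 of the means, 0.1 normalized CPM added). The fitted log2FC was -0.4 ± 0.27 (SE, adjusted p = 0.883). With the library set as a block it was -0.39 with a standard error of 0.15, an unadjusted p of 0.0252 and an adjusted p of 0.522 in edgeR. Over the members, 2 were lower within both sets, Hk2 and Slc16a1, and 3 were higher, Aldoc, Pdk4 and Pfkp, against 4.45% and 4.43% of all genes. Hk1 had 1.79 to 5 normalized CPM in the controls and 2.64 to 2.91 in the knockouts. Gpi1, glucose 6-phosphate isomerase, had 13.2, 16.6, 12.4 and 11.4 normalized CPM in the controls and 13.7, 13.7, 11.2 and 13.9 in the knockouts (log2FC -0.03 ± 0.2 SE), and 11.5% of its exon bases also belong to Gm26762 on the other strand.

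Phosphofructokinase 1 commits sugar to glycolysis, and its 3 genes code for subunits of the liver (Pfkl), muscle (Pfkm) and platelet (Pfkp) type. Pfkp (ENSMUSG00000021196, chromosome 13 from 6579768 to 6648777 on mm10, minus strand), whose promoter with its CTTTGA is shown above, had 7.52, 9.2, 7.99 and 8.6 normalized CPM in controls 1 to 4 and 10.5, 11.7, 22.4 and 13.8 in knockouts 1 to 4. Every knockout lay above every control, and knockout 3 was the highest. The log2FC was 0.8 ± 0.26 (SE, unadjusted p = 0.01, adjusted p = 0.476 in edgeR) and 0.52 without knockout 3 (adjusted p = 0.341). Over the 19 alternatives the adjusted p ranged from 0.228 with DESeq2 to 0.764 without control 2. Of its exon bases 5.58% also belong to Pitrm1 on the other strand. Of the 50-base stretches of the main Pfkp transcript, 17.1% occur in transcripts of other genes. Pfkl had 3.23 to 4.7 normalized CPM in the controls and 4.19 to 7.4 in the knockouts (log2FC 0.47 ± 0.29 SE), with overlapping groups. Pfkm had 0.501, 0.793, 1.17 and 0.789 in the controls and 1.01, 0.689, 3.99 and 0.849 in the knockouts. Its log2FC of 0.96 ± 0.64 (SE) came to 0.07 without knockout 3, and 10.2% of its exon bases also belong to Gm26513 on the same strand. The 3 genes together had 1.42, 1.46, 1.43 and 1.54 normalized CPM per kb in the controls and 1.87, 1.7, 3.98 and 2.08 in the knockouts. Every knockout lay above every control in this sum, which includes Pfkp. The knockout mean of 2.41 was raised by knockout 3. It was 1.88 ± 0.189 (SD of 3) without that library, a value computed after seeing the data, against 1.46 ± 0.0559 (SD of 4) in the controls. The share of each gene in that sum is in the plot of shares by step (Pfkp 42.5% ± 3.18 and 46.1% ± 4.82). Per kb of the main transcript, Pfkp took 55.9% to 64.3% of it in the controls and 59.1% to 67.4% in the knockouts.

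The bifunctional phosphofructokinase 2 enzymes make and break fructose 2,6-bisphosphate, an activator of phosphofructokinase 1, and their fitted values depended on single libraries. Pfkfb3, the isoform with the highest mean level per kb at this step over the 8 libraries, had 12.2, 12.2, 7.54 and 4.66 normalized CPM in the controls and 14.6, 7.81, 4.93 and 2.55 in the knockouts. Libraries of the first set lay above those of the second, and the log2FC of -0.28 ± 0.48 (SE) ranged from -0.84 without knockout 1 to 0 without knockout 4. Pfkfb4 had 3.2, 2.3, 2.87 and 3.55 in the controls and 1.96, 2.18, 9.87 and 3.7 in the knockouts. Per kb, Pfkfb4 lay above Pfkfb3 in control 4 and in knockouts 3 and 4. The log2FC of Pfkfb4 was 0.54 (standard error 0.5) with all libraries and -0.19 without knockout 3, so its direction depended on that library. Limma-voom with quality weights, which changes the test and the weights of the libraries together, gave -0.28, and DESeq2 gave 0.56. Pfkfb2 had 3.57, 0.952, 1.88 and 0.71 in the controls and 1.25, 0.632, 1.88 and 1.7 in the knockouts, and its log2FC of -0.41 ± 0.58 (SE) turned to 0.2 without control 1. Of the exon bases of Pfkfb2, 17.4% also belong to Gm29427 on the same strand.

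At the aldolase step, where fructose 1,6-bisphosphate is split, Aldoc separated the genotypes and Aldoa did not. Aldoc (ENSMUSG00000017390, chromosome 11 from 78322968 to 78327781 on mm10, plus strand), the aldolase best known from brain, had 52, 19, 21 and 23 counts in controls 1 to 4 and 158, 97, 49 and 68 in knockouts 1 to 4. These are 3.26, 1.51, 1.88 and 1.82 normalized CPM in the controls and 9.39, 5.57, 5.76 and 4.12 in the knockouts, and the lowest knockout lay above the highest control. The mean was 2.12 ± 0.779 in the controls and 6.21 ± 2.24 in the knockouts (mean ± SD of 4), giving a log2FC of 1.54 ± 0.37 (SE, unadjusted p = 0.00137, adjusted p = 0.24 in edgeR). Leaving out any 1 library gave 1.27 to 1.84. Over the 19 alternatives its adjusted p ranged from 0.0141 with DESeq2 to 0.606 in edgeR with a Y-linked covariate; it was 0.0204 without the filter on low counts, 0.0767 without knockout 3 and 0.598 without control 2. Within the first library set the log2 ratio of the means was 1.61 and within the second 1.37, without overlap in either. With scaling by library size alone, the genotypes overlapped.

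Aldoa, the aldolase of most tissues and the second most abundant member per kb, had 58.1, 59.7, 53.4 and 43.3 normalized CPM in the controls and 51.5, 49.3, 62.6 and 48.8 in the knockouts (log2FC -0.02 ± 0.17 SE). Of Aldoa and Aldoc together, Aldoc made up 2.2% to 4.77% of the level per kb in the controls and 7.02% to 14% in the knockouts. The log2 ratio of Aldoc to Aldoa within a library, which does not depend on the scaling, was -4.85 ± 0.47 in the controls and -3.31 ± 0.49 in the knockouts (mean ± SD of 4). The difference of 1.54 had an exact permutation p of 0.0286 (two-sided), the smallest that the 35 splits of 8 libraries allow, and an adjusted p of 0.229 over the 8 ratios compared. It was the only one of the 8 ratios with no overlap between the genotypes.

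**Figure D3:**
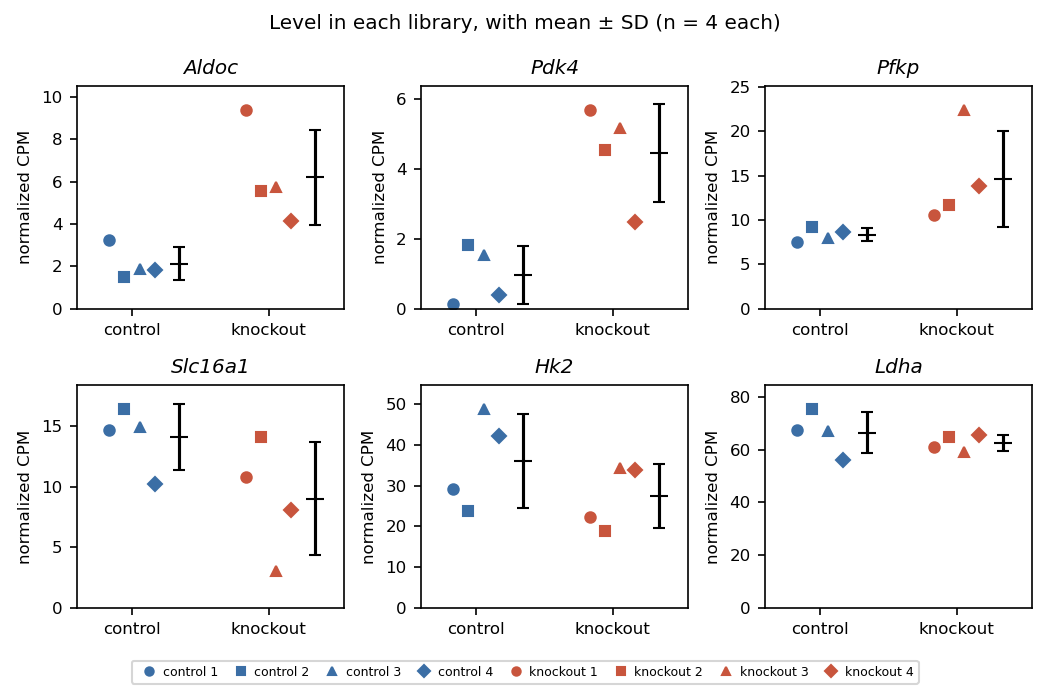
Normalized CPM of 6 members in every library (points, a symbol for each replicate number) with the mean and SD of each genotype (n = 4). Aldoc, Pdk4 and Pfkp lie higher in every knockout than in every control, while in Slc16a1, Hk2 and Ldha the genotypes overlap.

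The payoff steps from triose phosphate to pyruvate gave no member with an unadjusted p under 0.05. Tpi1, triosephosphate isomerase, had 33.1, 28.5, 37.6 and 29.3 normalized CPM in the controls and 29.9, 33.9, 24 and 49.3 in the knockouts (log2FC 0.1 ± 0.22 SE). Gapdh, with the low counts given above, had 0.125, 1.03, 0.179 and 0.71 in the controls and 1.25, 0.919, 0.47 and 1.09 in the knockouts. Its log2FC of 0.89 ± 0.67 (SE) was 0.55 to 1.47 when any 1 library was left out. Pgk1, phosphoglycerate kinase, had 3.26, 3.33, 2.6 and 2.29 in the controls and 3.21, 2.47, 1.29 and 3.88 in the knockouts (log2FC -0.07 ± 0.38 SE).

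Pgam1, phosphoglycerate mutase, had 1.94, 1.35, 1.53 and 2.37 normalized CPM in the controls and 1.49, 1.72, 0.352 and 1.88 in the knockouts, with knockout 3 as the lowest. Its log2FC was -0.37 ± 0.5 (SE). Eno1, the enolase of most tissues, had 5.14, 5, 5.29 and 3.55 in the controls and 6.3, 4.36, 4.82 and 5.58 in the knockouts (log2FC 0.15 ± 0.27 SE). Its near copy Eno1b, which shares 25.3% of the 50-base stretches of Eno1, had a log2FC of 0.34 ± 0.42 (SE). Pkm, which encodes the muscle-type pyruvate kinases that make pyruvate and ATP, had 11.3, 23.2, 10.5 and 10.1 in the controls and 19.6, 18.7, 19.9 and 18.9 in the knockouts. The 4 knockouts lay close together above 3 of the controls and below control 2. The log2FC was 0.48 ± 0.27 (SE, adjusted p = 0.821 in edgeR) and 0.85 without control 2. Without that library the genotypes did not overlap, which held for 6.92% of all genes. Counts per gene do not separate the M1 and M2 splice forms, and 15.3% of the exon bases of Pkm also belong to Gm49759 on the same strand.

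Ldha, the subunit of lactate dehydrogenase that favours lactate formation, had 67.2, 75.3, 66.9 and 56.2 normalized CPM in controls 1 to 4 and 61.1, 64.7, 58.9 and 65.5 in knockouts 1 to 4. All knockouts fell inside the range of the controls. The mean was 66.4 ± 7.83 and 62.5 ± 3.13 (mean ± SD of 4), giving a log2FC of -0.09 ± 0.15 (SE), and it stayed between -0.16 and -0.02 with each library left out. Over the 8 libraries its coefficient of variation was 9.14%, the lowest of the members. Ldhb, the subunit that favours pyruvate formation, had 1 to 12 counts in the controls and 3 to 20 in the knockouts. These were 0.188, 0.476, 0.0897 and 0.947 normalized CPM in the controls and 0.594, 0.172, 1.53 and 1.21 in the knockouts, which overlapped (log2FC 0.99 ± 0.79 SE). Ldha made up 98.6% ± 1.42 of the sum of Ldha and Ldhb per kb in the controls and 97.1% ± 2.02 in the knockouts.

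Lactate leaves or enters cells through Slc16a1, the monocarboxylate transporter Mct1, and Slc16a3, or Mct4. Slc16a1 (ENSMUSG00000032902, chromosome 3 from 104638668 to 104658462 on mm10) had 14.7, 16.4, 14.9 and 10.2 normalized CPM in the controls and 10.8, 14.1, 3.05 and 8.07 in the knockouts. Knockout 3 was the lowest, and only control 4 lay inside the range of the knockouts. The log2FC was -0.63 ± 0.37 (SE, unadjusted p = 0.116, adjusted p = 0.848 in edgeR) and -0.36 without knockout 3. With the library set as a block it was -0.72 (standard error 0.31, unadjusted p = 0.0446, adjusted p = 0.605). Slc16a3 had 2 to 20 counts in the controls and 3 to 26 in the knockouts. Slc16a7, or Mct2, which is no member here, had 6.27 to 17.4 normalized CPM in the controls and 5.28 to 27.3 in the knockouts, with knockout 3 as the highest (log2FC 0.34 ± 0.48 SE). The log2 ratio of Slc16a3 to Slc16a1 per kb was -4.63 ± 1.13 in the controls and -3.19 ± 0.5 in the knockouts. The groups overlapped, and the difference of 1.45 had an exact permutation p of 0.0857 (adjusted p = 0.343 over 8 ratios).

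The other 6 ratios gave exact permutation p-values of 0.171 to 0.943 (two-sided). The log2 ratio of Hk1 to Hk2 differed by 0.31, that of Pfkp to Pfkl by 0.29, that of Eno2 to Eno1 by -0.82, that of Ldha to Ldhb by -1.09, that of Pdk1 to Pdha1 by 0.02 and that of Pfkfb3 to Pfkfb2 by -0.24, knockouts minus controls.

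**Figure D4:**
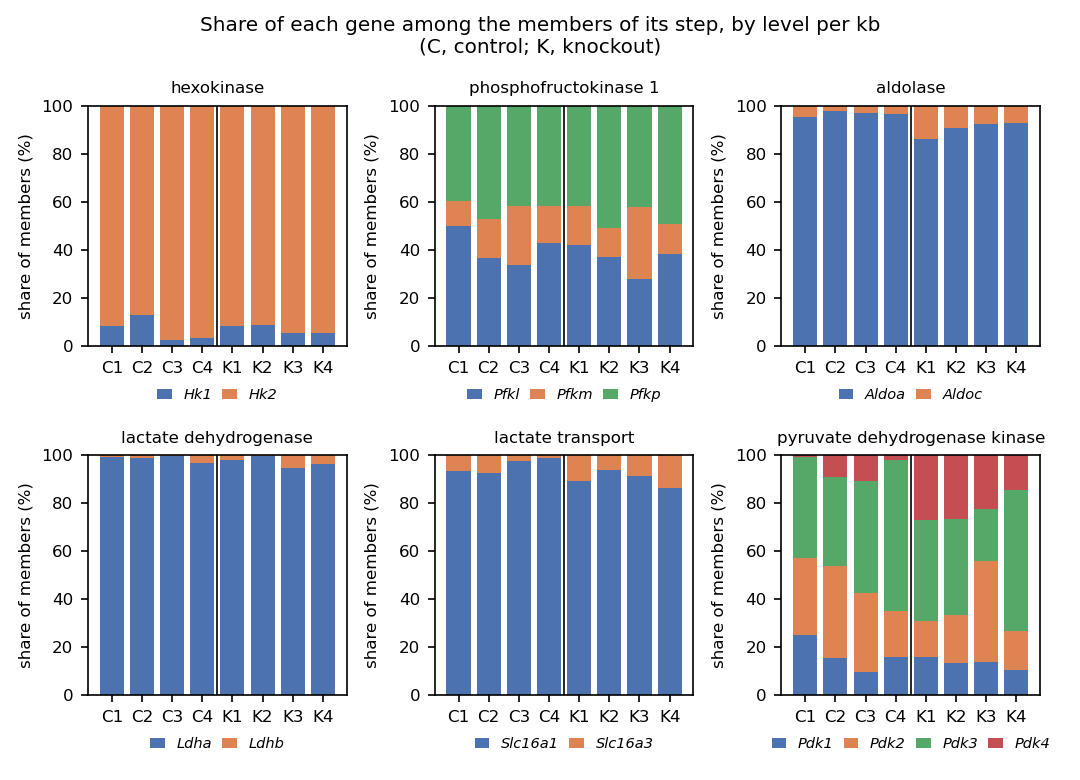
Share of each gene in the summed level per kb of exon of the members of its step, in percent, for every library (C1 to C4, controls; K1 to K4, knockouts; stacked bars reach 100). Aldoc took 2.2% to 4.77% of Aldoa and Aldoc together in the controls and 7.02% to 14% in the knockouts, Pdk4 0.807% to 10.9% and 14.3% to 27.2% of the 4 kinases, and Hk2, Ldha and Slc16a1 held most of the level of the members at their steps in all libraries; isoforms outside the 33 members are not drawn.

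The mitochondrial pyruvate carrier and pyruvate dehydrogenase gave no member with an unadjusted p under 0.05, and Dlat stood lowest. Mpc2, a subunit of the carrier, had 31.3, 41.6, 35.4 and 31.9 normalized CPM in the controls and 34.3, 30.8, 40.8 and 37.4 in the knockouts (log2FC 0.03 ± 0.17 SE). Its partner Mpc1 had 1.62 to 3.09 in the controls and 2.18 to 4.06 in the knockouts, and 23.1% of the exon bases of Mpc1 are shared with a gene on the other strand. Pdha1, which encodes the subunit of pyruvate dehydrogenase that the kinases phosphorylate, had 32.7, 22.1, 26.5 and 27.9 in the controls and 20.3, 23.7, 30.5 and 28.3 in the knockouts (log2FC -0.09 ± 0.19 SE), and 16.1% of its exon bases also belong to Map3k15 on the other strand. Pdhb, its partner in the same subcomplex, had 13.3 to 27.9 in the controls and 12.9 to 23.3 in the knockouts (log2FC -0.13 ± 0.26 SE). Dlat, the acetyltransferase core of the complex and the member with the lowest fitted value, had 8.65 to 13.9 normalized CPM in the controls and 3.17 to 11.4 in the knockouts (log2FC -0.65 ± 0.34 SE, adjusted p = 0.796 in edgeR), which came to -0.42 without knockout 3. Within the first library set the log2 ratio of the Dlat means was -0.07, and within the second it was -1.47.

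Of the 4 pyruvate dehydrogenase kinases, 1 separated. Pdk4 (ENSMUSG00000019577, chromosome 6 from 5483351 to 5496309 on mm10, minus strand), the kinase known to be induced by fasting, had 2, 23, 17 and 5 counts in controls 1 to 4 and 96, 79, 44 and 41 in knockouts 1 to 4. These are 0.125, 1.82, 1.53 and 0.395 normalized CPM in the controls and 5.7, 4.54, 5.17 and 2.49 in the knockouts. The lowest knockout lay above the highest control, and controls 1 and 4 were well below controls 2 and 3. The mean was 0.968 ± 0.833 and 4.47 ± 1.41 (mean ± SD of 4), giving a log2FC of 2.22 ± 0.64 (SE, unadjusted p = 0.005, adjusted p = 0.39 in edgeR). Leaving out any 1 library gave 1.83 to 2.75. Over 18 alternatives its adjusted p ranged from 0.0026 in edgeR without the filter to 0.721 with the Y-linked covariate (log2FC 1.85); it was 0.0478 with DESeq2 and 0.68 without control 4. Within the first library set the log2 ratio of the means was 2.28 and within the second 1.89.

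Over the 8 libraries, Pdk3 had a mean of 2.29, Pdk2 of 1.43, Pdk1 of 0.797 and Pdk4 of 0.775 normalized CPM per kb of exon. Pdk3 had 4.76, 5.47, 4.76 and 9.55 normalized CPM in the controls and 6.42, 4.94, 3.64 and 7.46 in the knockouts (log2FC -0.12 ± 0.33 SE). Pdk2 had 4.45, 6.9, 4.13 and 3.63 in the controls and 2.79, 3.1, 8.69 and 2.55 in the knockouts, so that 3 knockouts lay below and knockout 3 above all controls. Its log2FC was -0.19 ± 0.43 (SE) with all libraries and -0.76 without knockout 3 (standard error 0.31, unadjusted p = 0.0287, adjusted p = 0.368 in edgeR). Pdk1 had 2.96 to 8.71 in the controls and 4.06 to 7.48 in the knockouts. The 4 kinases together averaged 5.02 normalized CPM per kb in the controls and 5.58 in the knockouts, and Pdk4 took 5.67% ± 5.07 of that sum in the controls and 22.7% ± 5.96 in the knockouts (mean ± SD of 4). Per kb of the main transcript, Pdk4 took 0.603% to 8.61% in the controls and 11.6% to 22.2% in the knockouts, and Aldoc 1.35% to 2.95% and 4.38% to 9% of Aldoa and Aldoc.

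Other genes around the pathway were counted from lists that were written for the purpose, and no gene of any of them was called. Of 23 alternative isoforms and sugar transporters, 13 passed the filter and 12 of these had a lower fitted value in the knockouts, with a median log2 fold change of -0.45 beside 0.01 for all genes. Slc5a1, the sodium-glucose cotransporter of absorptive cells, had 15.9, 12.1, 10.7 and 15.9 normalized CPM in the controls and 8.85, 7.52, 3.76 and 11.6 in the knockouts (log2FC -0.77 ± 0.31 SE, unadjusted p = 0.0301, adjusted p = 0.662 in edgeR). Of the enterocyte markers, 6 of 7 tested were lower too, and the 10 of the list summed to 214 to 407 normalized CPM in the controls and 147 to 298 in the knockouts. Their part in the values of Slc5a1 was not tested. Of 9 tested gluconeogenesis and fructose enzymes, 6 were lower. Fbp2, a fructose 1,6-bisphosphatase, which runs the phosphofructokinase 1 step backwards, had 67.9, 77.2, 48.3 and 44.3 in the controls and 35.4, 30.9, 43.8 and 22.1 in the knockouts. Every knockout lay below every control, though control 4 and knockout 3 were close. The log2FC was -0.85 ± 0.24 (SE, unadjusted p = 0.00491, adjusted p = 0.39 in edgeR). G6pc, the glucose 6-phosphatase of liver, had 0 counts in all libraries.

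Among 10 tested partners of pyruvate dehydrogenase and other monocarboxylate transporters, 7 were higher and 3 lower. Slc5a8, a sodium-coupled monocarboxylate transporter, had 0.627, 0.873, 1.08 and 0.71 normalized CPM in the controls and 0.594, 2.3, 2 and 3.52 in the knockouts (log2FC 1.35 ± 0.55 SE, unadjusted p = 0.03, adjusted p = 0.662). Pdpr, the regulatory subunit of pyruvate dehydrogenase phosphatase, had 2.38, 1.51, 1.62 and 1.66 in the controls and 0.475, 0.632, 0 and 1.15 in the knockouts (log2FC -1.58 ± 0.67 SE, unadjusted p = 0.0355, adjusted p = 0.67), and every knockout lay below every control. The 8 pentose phosphate genes all lay within 0.5 of 0, and 0 of them had an unadjusted p under 0.05. Of 16 tested hypoxia response genes, 7 were higher and 9 lower with a median of -0.09. Car9, a carbonic anhydrase, was the only one with an unadjusted p under 0.05 (log2FC -1.35 ± 0.57 SE, unadjusted p = 0.0346, adjusted p = 0.67), with 6.02, 7.38, 3.14 and 2.76 in the controls and 1.13, 3.45, 0.352 and 2.43 in the knockouts. Of 14 nuclear-encoded respiratory chain genes, 3 were higher and 11 lower, all within -0.26 and 0.16, and 0 had an unadjusted p under 0.05.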

How the data were processed

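RNA-seq counts of sorted Paneth cells from 4 controls and 4 knockouts were analysed, grouped by the genotype in the labels. Replicate numbers are names in accession order and pair no samples. One animal number, with opposite genotypes, stands in the titles of both control 4 and knockout 4. Whether that marks a relation or a slip in a label is not given in the sources used here, and it was not used. The study's methods call the animals littermates without giving the litters. Per the labels and the study's methods, the authors aligned reads with GSNAP to mm10 and deposited raw counts, the whole numbers of uniquely mapped reads per gene (featureCounts 1.6.3, Ensembl release 92), without normalization. The strand setting is not given in the sources used here, and PCR copies were counted separately. The 92 spike-in rows were left out. Symbols were matched by identifier for 53620 of 53801 genes. Aldoa has a second row, which had 0 counts in all libraries and was not used.

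Genotypes were compared with edgeR 4.0.16 under R 4.3.3 (filterByExpr with minimum count 10 and minimum total 15, TMM, robust quasi-likelihood fit, Benjamini-Hochberg adjustment over 13439 genes). The standard error of a log2 fold change was taken as its size over the square root of F. Ratios of 2 members were formed per kb with 0.5 counts added and tested by exact permutation over 35 splits. A count of 3 corresponds to 0.172 to 0.352 normalized CPM, and the common biological coefficient of variation was 0.376. Whether samples differ by mouse alone or also by handling is not stated, so p-values measure the spread between these libraries.

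All members were named. Values per library were printed for members with an unadjusted p under 0.05 or complete separation, for the member highest per kb at each step, and for members that moved by over 0.5 on the log2 scale when 1 library was left out. The members and lists were chosen with earlier results of these data known. Alternatives were other scalings, other filters, DESeq2 1.42.0, a non-robust edgeR fit, limma-voom with quality weights (limma 3.58.1), a block for the library set, a Y-linked covariate and each library left out. Shared sequence was counted over GENCODE M21 transcripts in stretches of 50 bases, promoters come from RefSeq on GRCm38.p6, and all 33 members matched a promoter entry. The functions were tested on simulated data.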

Additional observations from a re-analysis of the deposited data

Results flagged for a closer look

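The 33 members and the 8 ratios, each in both genotypes, make 82 groups of 4 libraries. In 7 of them, all groups of members, 1 library stood far from the other 3 of its genotype, measured as its gap to the nearest over the range of the group. For normally distributed values, chance would flag about 1 in 20 groups, or 4.1 of 82. The member values are normalized CPM, some from few counts, and the groups share the same 8 libraries, so 4.1 is a rough guide. In the knockouts, knockout 3 stood apart in Gpi1 (gap of 0.918 of the range, 11.2 normalized CPM against 13.7 to 13.9), Pfkm (0.903, 3.99 against 0.689 to 1.01) and Pdk2 (0.91, 8.69 against 2.55 to 3.1). Knockout 4 stood apart in Pfkfb1 (0.846, 2 against 0.0574 to 0.356). In the controls, control 4 stood apart in Eno1 (0.83, 3.55 against 5 to 5.29) and Pdk3 (0.85, 9.55 against 4.76 to 5.47), and control 2 in Pkm (0.91, 23.2 against 10.1 to 11.3).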

How the results depend on the processing

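No paired analysis was possible because the groups share only 1 number in the labels, the animal number of control 4 and knockout 4. Genes called over the whole table numbered 25, and 15 with library size only, 290 without a filter, 13 with at least 10 counts in every library, 138 with DESeq2, 95 with limma-voom, 10 with the Y-linked covariate and 10 to 152 with a library left out (10 without control 3, 152 without knockout 3). Members called were 0, and 2 (Aldoc and Pdk4) without a filter or with DESeq2, and at a false discovery rate of 10% also with limma-voom. At an adjusted p of 0.05 they stayed at 0 with each library left out. The members' median of -0.02 moved to 0.24 with library size only, which moved the median of all genes to 0.25, and lay between -0.02 and 0.04 with a library left out. Separated members numbered 3, against 4.52% of all genes, and 2 with library size only, against 4.33%. With a library left out they numbered 3 to 5, against 6.92% to 11.3% of all genes. There were 5 without control 4 (Ldha and Slc16a1 lower), against 7.74%, and 4 without knockout 3, against 11.3%.

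The log2 fold changes of some members changed sign, most of them within 0.2 of 0, and also Pfkfb4 (0.54), Pfkfb2 (-0.41) and Pfkfb3 (-0.28). With library size only it was 0.01 for Hk1, 0.24 for Gpi1, 0.18 for Aldoa, 0.24 for Pgk1, 0.17 for Ldha, 0.1 for Pdha1, 0.09 for Pdhb, 0.03 for Pdk1 and 0.2 for Pdk3, all at or below the shift of all genes. Upper-quartile factors gave -0.03 for Slc2a1 and -0.02 for Mpc2. The library set block gave -0.06 for Slc2a1. The Y-linked covariate gave -0.33 for Slc2a1, 0.03 for Pgk1, 0.07 for Pdk1 and 0.05 for Pdk3. Limma-voom gave 0.06 for Gpi1, -0.28 for Pfkfb4, 0.08 for Pgk1 and -0.04 for Mpc2. With a library left out, signs changed within -0.17 to 0.23 for Slc2a1, -0.39 to 0.11 for Hk1, -0.1 to 0.09 for Gpi1, -0.67 to 0.2 for Pfkfb2, -0.84 to 0 for Pfkfb3, -0.19 to 0.79 for Pfkfb4, -0.11 to 0.03 for Aldoa, -0.13 to 0.23 for Tpi1, -0.29 to 0.14 for Pgk1, -0.04 to 0.12 for Mpc2, -0.18 to 0.02 for Pdha1, -0.3 to 0.03 for Pdhb, -0.38 to 0.04 for Pdk1, -0.76 to 0.04 for Pdk2 and -0.29 to 0.17 for Pdk3. The ratio differences ranged from -0.08 to 0.75 for Hk1/Hk2, from -0.31 to 0.24 for Pdk1/Pdha1 and from -0.68 to 0.32 for Pfkfb3/Pfkfb2. The causes were not tested.

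Aldoc and Pfkp had an unadjusted p under 0.05 in all 19 alternatives, and Pdk4 in the 18 that tested it. These alternatives refit the same 8 libraries or part of them and are no independent support. The filter of at least 10 counts in every library left Pdk4 out, as controls 1 and 4 had 2 and 5 counts. Members with few counts (Gapdh, Ldhb, Slc16a3, Pfkm, Pfkfb2, Pgam1) have standard errors of 0.5 to 0.79. Pdk4, with few counts in the controls, has 0.64, and Pfkfb4, with more counts, has 0.5. That of Pfkm was 0.64, and 0.51 without knockout 3. Whether depth or spread between libraries sets these errors was not tested.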
